A study of Mus musculus with 22 samples.

Results

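Krt5, Krt14, Krt15, Krt17, Trp63 and Oxtr are genes used to mark the basal (myoepithelial) layer of the mammary gland. They were taken by symbol from the deposited expression tables, 6 genes of the 52526 distinct symbols listed. RNA came from the left mammary tissue of 22 female C57BL/6J mice, aged 7 to 8 weeks, into which EO771 cells had been engrafted. EO771 is a mouse mammary cancer line from the same strain, here made to express firefly luciferase. Wheel-running mice had an angled running wheel in the cage for 2 weeks before engraftment and for the last 24 hours, and control mice had the wheel's hub alone. Every mouse was also given liposomes into a vein, 24 hours before engraftment and again at engraftment, filled either with PBS, a buffer, or with clodronate, a drug toxic to the phagocytes that take it up. The 4 groups were control with PBS liposomes (6 mice), wheel with PBS liposomes (6 mice), control with clodronate liposomes (5 mice) and wheel with clodronate liposomes (5 mice). All mice therefore carried engrafted cancer cells and had received liposomes, so no group showed undisturbed mammary tissue.

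The mammary duct has an inner, luminal layer that makes milk and an outer, basal layer that squeezes it out. Basal cells contain keratin filaments built from Krt5 and Krt14, depend on the transcription factor p63 (gene Trp63), and contract when the hormone oxytocin binds its receptor (gene Oxtr). Krt5, Krt14 and Trp63 are not confined to the breast, since the bottom layer of the skin and the hair follicle use the same genes. Krt15 marks stem cells of the hair follicle bulge and basal keratinocytes, and Krt17 is a keratin of hair follicles, of wounded skin and of some basal epithelia.

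The 6 genes did not vary as a single basal program. The keratins and Trp63 went up and down together from mouse to mouse, over ranges that reached 451-fold for Krt15, and followed the genes of differentiated epidermis. Over the 22 mice Oxtr varied less, in the opposite direction, and went with several contractile genes, such as Cnn1 and Acta2, and with luminal keratins. Its relations with the smooth muscle and luminal lists rest on few mice. In the 8 mice with the least epidermis RNA its relations were mixed, with r of 0.101 with Krt5 and 0.413 with Trp63. They were -0.038 with Krt14, -0.297 with Krt15 and -0.433 with Krt17 there. Between the groups of mice, 0 of the 6 genes passed the test in any comparison. In the 8 mice the keratins and Trp63 had r of 0.660 to 0.880 with the luminal list and 0.695 to 0.869 with the smooth muscle list. Over the 22 mice the label of basal mammary epithelium was thus not borne out for the set as a whole, and the genes are described here by name.

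Values are in CPM, read counts of a gene scaled to a common library size, with every value below 1 raised to 1 in the deposited tables. Libraries held 13256467 to 20484578 reads (median 16293026), and the floor of 1 CPM stood for 13 to 20 reads in these libraries. Libraries read the 3′ ends of transcripts, so that a level does not scale with transcript length. Of all symbols, 73.4% to 76.0% were at the floor in a mouse. Each of the 6 genes exceeded the floor in 5 or more mice and so was among the 15138 genes tested. In bulk tissue, fewer cells of a type and less RNA per cell cannot be told apart. The labels name single mice, each a separate animal.

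On GRCm38 in the GENCODE M21 annotation, Krt5 lies on chromosome 15 (101707070 to 101712898, minus strand), and Krt15 (100131758 to 100135928), Krt14 (100203162 to 100207548) and Krt17 (100256217 to 100261029) lie near each other on the minus strand of chromosome 11, in the type I keratin cluster. Trp63 lies on chromosome 16 (25683763 to 25892102, plus strand) and Oxtr on chromosome 6 (112473683 to 112489943, minus strand). All are protein-coding genes. The annotated genes that overlap Krt5 and Trp63 were at the floor in every mouse. The ends of the Krt14 and Krt17 transcripts share a stretch of 90 to 97 bases at 97.8% to 97.9% identity, so that some reads from it may fit both genes. Reads that mapped to several places were listed apart from the genes, at 16.6% to 19.9% of a library. No other pair among the 6 had a match of 50 bases at 97% identity.

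The promoters of Krt5 and Oxtr are shown because these 2 genes stand for the opposite patterns described below. Each sequence lies upstream of its gene and runs 5′ to 3′ on the minus strand, as RefSeq gives it for GRCm38.p6, with that of Oxtr ending at the base before the GENCODE gene and that of Krt5 a few bases short of it (Krt5, chr15:101712906-101713155; Oxtr, chr6:112489944-112490075). Capitals mark the letters CNNG repeated after a gap of 6 bases, the spaced pattern that p63 and its relatives bind.
Krt5: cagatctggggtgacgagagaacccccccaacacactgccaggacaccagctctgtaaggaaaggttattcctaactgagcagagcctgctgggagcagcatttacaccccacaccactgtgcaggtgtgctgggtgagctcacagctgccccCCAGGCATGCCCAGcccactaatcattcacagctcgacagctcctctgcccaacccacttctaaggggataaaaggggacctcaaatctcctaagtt
Oxtr: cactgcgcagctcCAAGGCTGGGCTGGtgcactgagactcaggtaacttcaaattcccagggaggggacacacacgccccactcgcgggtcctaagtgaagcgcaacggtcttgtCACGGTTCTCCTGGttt

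The pattern occurred 1 time in the 250 bases of Krt5 and 2 times in the 132 bases of Oxtr. It is a loose one, found on either strand in 63.5% of the 32851 promoters of 250 bases searched in the same way, and so does not set these genes apart. The letters TATAAA (12.4% of promoters), TGANTCA (6.75%), GCCNNNGGC (13.7%) and GGGCGG (32.7%), searched on both strands for the TATA box, AP-1, AP-2 and Sp1, were not in either stretch. Of the 6 genes, 3 had an entry among the promoter sequences.

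Krt5 and Krt14 form the filament pair of basal keratinocytes and basal mammary cells. Krt5 ranged from 29.1 to 538 CPM (median 180) in control mice with PBS liposomes and from 22.1 to 755 CPM (median 55.3) in wheel-running mice with PBS liposomes. With clodronate liposomes, the 5 control mice had 36.4, 104, 220, 1195 and 1468 CPM, and the 5 wheel-running mice had 30.8, 32.3, 184, 428 and 619 CPM. Every group thus held mice with at most 36.4 CPM beside mice with at least 538 CPM, and the groups overlapped over most of the range.

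Krt14 had 29.6 to 582 CPM (median 196) in control and 26.4 to 656 CPM (median 47.3) in wheel-running mice of the PBS groups. With clodronate liposomes its values were 44.9, 105, 179, 1222 and 1946 CPM in control and 33.5, 41.6, 184, 281 and 482 CPM in wheel-running mice. The same mice were high for both genes. The ratio of Krt14 to Krt5 within a mouse stayed between 0.656 and 1.35 (median 1.02), while each gene alone varied 66.5-fold (Krt5) and 73.6-fold (Krt14) over the 22 mice.

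Krt15 had the widest range of the 6. With PBS liposomes it had 5.55 to 607 CPM (median 168) in control and 2.55 to 864 CPM (median 23.8) in wheel-running mice. Its values with clodronate liposomes were 7.76, 78.3, 316, 1087 and 1151 CPM in control and 4.80, 18.6, 275, 614 and 988 CPM in wheel-running mice. Unlike Krt14, it did not keep a fixed ratio to Krt5, which went from 0.116 to 1.71 (median 0.782).

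With PBS liposomes Krt17 had 8.61 to 577 CPM (median 66.1) in control and 6.38 to 283 CPM (median 20.1) in wheel-running mice. In the clodronate groups it had 16.9, 34.1, 64.3, 395 and 540 CPM in control and 19.1, 21.6, 81.7, 110 and 251 CPM in wheel-running mice. A single control mouse with PBS liposomes, mouse 4, had more Krt17 than Krt5, by a ratio of 1.07. In the other mice the ratio was lower, with a median over all mice of 0.381 and a lowest value of 0.258.

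Trp63, the transcription factor needed for stratified and basal epithelia, had lower values than the keratins in every mouse. It had 3.87 to 32.2 CPM (median 8.62) in control mice with PBS liposomes and 1 to 30.3 CPM (median 5.63) in wheel-running mice, of which 1 was at the floor. With clodronate liposomes its values were 5.96, 12.1, 12.5, 33.3 and 37.6 CPM in control and 2.18, 2.37, 9.30, 14.1 and 31.7 CPM in wheel-running mice. The low mice held a larger ratio of Trp63 to Krt5, up to 0.164, than the mouse with the most Krt5, where it was 0.0227.

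Oxtr, the oxytocin receptor, was the steadiest of the 6 by its SD within groups, pooled over the groups. In control mice with clodronate liposomes, though, Trp63 varied less (6.32-fold, against 19.1-fold for Oxtr). With PBS liposomes Oxtr had 26.6 to 73.4 CPM (median 48.2) in control and 26.4 to 58.1 CPM (median 44.8) in wheel-running mice. Its values with clodronate liposomes were 3.98, 20.6, 36.5, 46.9 and 75.8 CPM in control and 11.7, 19.4, 23.0, 29.2 and 48.1 CPM in wheel-running mice. The lowest value, 3.98 CPM, was in control mouse 3 with clodronate liposomes, which had the highest Krt5 and Krt14 of all mice. Oxtr exceeded Krt5 in 4 of the 22 mice, and the ratio of the 2 genes went from 0.00271 to 2.52.

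**Figure D1:**
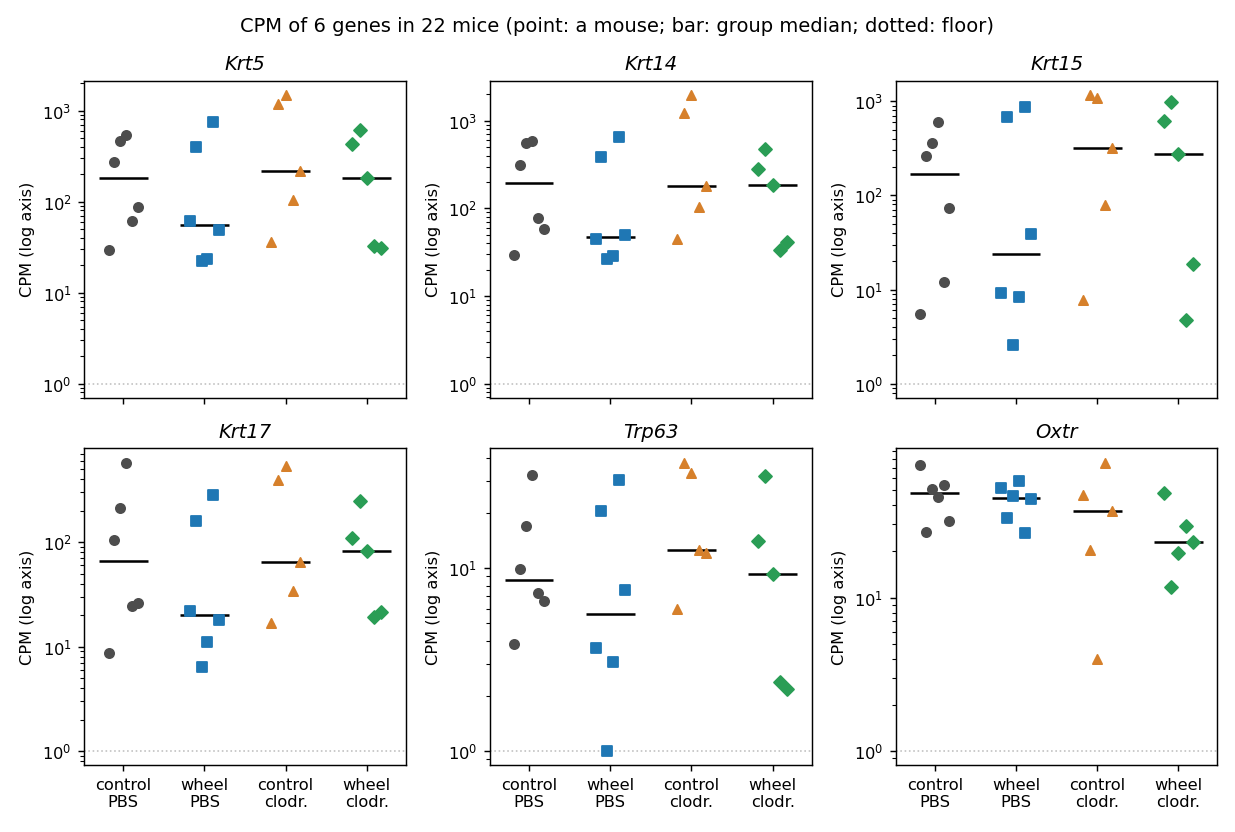
CPM of each gene (log axis, scaled for each panel) in the 4 groups, with a point for each mouse, a bar for the group median and a dotted line at the floor of 1 CPM. Krt15 spans 2.55 to 1151 CPM and Oxtr 3.98 to 75.8 CPM, and for each gene the groups overlap.

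The spread inside the groups was large even beside other genes. On the log2(CPM + 1) scale, the SD within groups was 3.07 for Krt15, 2.05 for Krt17, 2.02 for Krt5, 1.96 for Krt14, 1.27 for Trp63 and 0.87 for Oxtr, against a median of 0.46 over the genes tested. Among the 15138 genes, 16 had a larger SD than Krt15 and 114 a larger one than Krt14. For Oxtr that number was 1160. Between 80.5% (Oxtr) and 92.9% (Krt15) of each gene's variance lay within groups, against 85.0% for the median gene.

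The first comparison asked whether wheel running changed expression in mice with PBS liposomes. The values were lower on average in wheel-running mice for each of the 6 genes, with differences far inside the spread between mice. In limma with Benjamini-Hochberg adjustment over the 15138 genes, fitted to all 22 mice, 0 of the 6 genes passed an adjusted p of 0.05, as did 0 of all genes (percentage of genes called, 0), with 744 genes at an unadjusted p under 0.05. On the log2(CPM + 1) scale, which understates the changes of low genes, the difference was -0.74 for Krt5 (standard error 1.03, adjusted p = 0.991), -0.82 for Krt14 (standard error 1.00) and -0.93 for Krt17 (standard error 1.05). It was -0.92 for Krt15 (standard error 1.57), and the 95% interval of that gene ran from -4.16 to 2.33. Trp63 differed by -0.53 (standard error 0.66) and Oxtr by -0.09 (standard error 0.45, 95% interval -1.02 to 0.84). The intervals were wide enough for several-fold differences in either direction in the keratins. The groups did not separate for any of the 6 genes, while 0.264% of all genes had groups that did not overlap. The median difference of the 6 genes was -0.78, and that of all 15138 was -0.08. The epidermis and hair follicle list, described below, had a median difference of -0.80 in the same mice, with 18 of its 20 genes lower and 0 called, and its part in these differences was not tested.

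The second comparison asked the same of mice with clodronate liposomes. Here too all 6 genes had lower averages in wheel-running mice and 0 of 6 passed (limma, adjusted p), against 1 of 15138 genes (0.00661%), with 1579 genes at an unadjusted p under 0.05. Krt14 differed by -1.16 (standard error 1.10, limma adjusted p = 0.791), Krt5 by -0.97 (standard error 1.13) and Krt15 by -0.77 (standard error 1.72). Krt17 differed by -0.61 (standard error 1.15). For Trp63 the difference was -0.98 (standard error 0.73, limma adjusted p = 0.713) and for Oxtr -0.14 (standard error 0.49). Groups overlapped for each of the 6 genes, while they did not overlap for 1.27% of all genes. The median over the 6 genes was -0.87, against 0.0045 over all genes and -0.78 over the epidermis list. Lymph node markers were higher in wheel-running mice of this comparison, with a median difference of 3.03 over 10 tested genes and 0 called. Without the 5 mice with lymph node markers above 3 on the log2 scale, 2 wheel-running mice remained and the differences of Krt5 (0.92), Krt14 (0.34), Krt15 (2.01), Krt17 (0.78) and Trp63 (0.35) were positive. The 2 wheel-running mice that remained were the highest of their group on the epidermis list, with means of 5.62 and 6.16. Those left out of that group had means of 1.52, 1.80 and 4.68. The part of this in the change of sign was not tested.

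The third comparison set the 10 mice with clodronate liposomes against the 12 with PBS liposomes. The keratins and Trp63 averaged higher with clodronate and Oxtr lower, and 0 of 6 passed the adjusted test, against 0.205% of all genes (31 genes, all lower with clodronate). Krt15 differed by 1.28 (standard error 1.16, limma adjusted p = 0.734), Krt5 by 0.75 (standard error 0.77), Krt14 by 0.72 (standard error 0.74), Krt17 by 0.71 (standard error 0.78) and Trp63 by 0.41 (standard error 0.49). The epidermis list went the same way as the keratins, with 18 of 20 genes higher and a median of 0.74, as did the skeletal muscle list, with 10 of 10 higher and a median of 1.46, each with 0 called. In the wheel comparisons the skeletal muscle medians were -1.92 with PBS and -1.23 with clodronate liposomes, also with 0 called. Their part in these differences was not tested. Of the 6 genes, Oxtr was nearest to a call. It differed by -0.77 (standard error 0.33, 95% interval -1.46 to -0.076), with a limma p of 0.0311 before and 0.414 after adjustment over all genes. An unadjusted p under 0.05 was found for 1579 of the 15138 genes. That of Oxtr was not under 0.05 without the mice with lymph node markers above 3. The same held without any one of control mouse 1 with PBS, or controls 2 and 3 and wheel-running mouse 2 with clodronate liposomes. The median Oxtr was 36.5 and 23.0 CPM in the 2 clodronate groups, against 48.2 and 44.8 CPM in the 2 PBS groups, and the mice overlapped. In the smooth muscle list 9 of 10 genes and in the adipocyte list 10 of 10 genes were lower with clodronate, with 0 called and medians of -0.22 and -0.41, against -0.04 over all genes. Their part in the Oxtr difference was not tested. For no gene of the 15138 (0%) did all clodronate mice lie to one side of all PBS mice.

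The interaction asked whether wheel running acted differently with the 2 liposomes. It was called for 0 of 6 genes and for 0 of all genes (0%), with 1147 genes at an unadjusted p under 0.05 in limma. Estimates went from -0.45 for Trp63 (standard error 0.99) to 0.32 for Krt17 (standard error 1.55), with a 95% interval of -3.41 to 2.93 for Krt5.

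**Figure D2:**
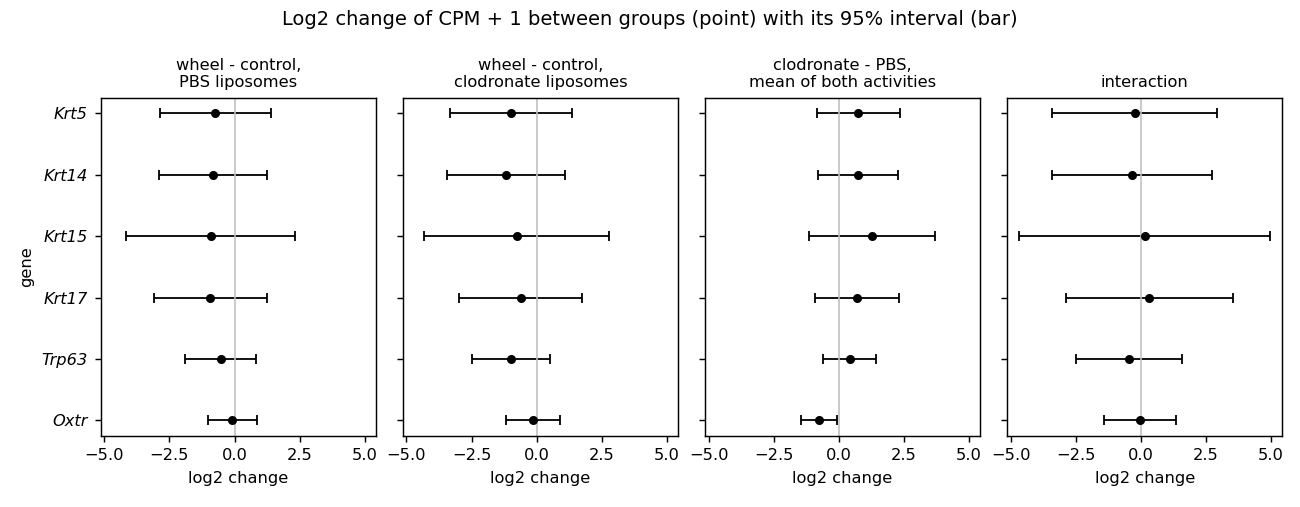
Difference between groups in log2(CPM + 1) for each gene (point) with its 95% interval from limma (bar), in the 3 comparisons and the interaction. Each interval includes 0 except that of Oxtr with clodronate against PBS liposomes, -1.46 to -0.076, which did not pass after adjustment.

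With so little of the variance between groups, the genes were compared across single mice. Correlations were computed over the 22 mice with each group's mean taken out, on log2(CPM + 1). P-values came from 100000 permutations of the mice within groups (two-sided) and were adjusted over 57 relations, 15 between the genes and 42 with the means of 7 marker lists. The smallest p the permutations can give is 1e-05, or 3.8e-05 after adjustment.

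All 15 pairs passed an adjusted p of 0.05, in 2 opposite senses. Krt5 and Krt14 had a Pearson r of 0.987 (Spearman's rho 0.984, permutation adjusted p = 3.8e-05, the smallest possible), and the r was 0.986 without the 2 mice farthest from the median Krt5. The 10 pairs among the keratins and Trp63 had r from 0.927 (Krt14 with Trp63) to 0.987, each at the smallest adjusted p. Over the 22 mice Oxtr was inversely related to each of them. Its r was -0.576 with Krt5 (rho -0.646, permutation adjusted p = 0.0181), -0.616 with Krt14, -0.510 with Krt15, -0.581 with Krt17 and -0.466 with Trp63 (adjusted p = 0.0378). With the group means left in, Oxtr with Trp63 did not pass (r = -0.444, permutation adjusted p = 0.0676), while the other 4 did. Without the 2 mice with the most Krt5, controls 2 and 3 with clodronate liposomes, r of Oxtr with Krt5 was -0.443. Leaving out control mouse 3 with clodronate liposomes alone gave -0.538 (permutation adjusted p = 0.0509), which did not pass. The relation of Oxtr with Trp63 did not pass without any one of 10 mice, with r between -0.546 and -0.400 over all 22 left out in turn. These were control mouse 1 and wheel-running mice 2, 4 and 5 with PBS liposomes, and controls 3, 4 and 5 and wheel-running mice 2, 3 and 4 with clodronate liposomes. That with Krt15 did not pass without any one of 5 (control 1 and wheel-running 2 and 5 with PBS, control 4 and wheel-running 2 with clodronate), at r from -0.520 to -0.469.

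The skin was the marker list closest to the keratins. The list of 20 epidermis and hair follicle genes holds, among others, Krt1, Krt10 and Krt77 of the upper epidermis, Lor, Flg and Ivl of the cornified envelope and Krt25, Krt71 and Krt75 of the hair follicle. Its mean per mouse had r of 0.980 with Krt5, 0.974 with Krt14, 0.973 with Krt15, 0.971 with Krt17 and 0.926 with Trp63 (each permutation adjusted p = 3.8e-05), and -0.558 with Oxtr (rho -0.619, adjusted p = 0.0181). In terms of variance within groups, the list shared 96.0% with Krt5, 94.8% with Krt14, 94.7% with Krt15, 94.2% with Krt17, 85.7% with Trp63 and 31.2% with Oxtr. For each rise of 1 in the list mean on the log2 scale, Krt15 was higher by 1.32, Krt5 by 0.87, Krt17 by 0.88, Krt14 by 0.84 and Trp63 by 0.52, and Oxtr changed by -0.21. The defining gene Krt10 went from 7.49 to 4443 CPM over the mice, and Lor from 3.69 to 2038 CPM. With PBS liposomes the summed CPM of the list ranged from 43.9 to 6364 in control and from 42.1 to 9139 in wheel-running mice. In the clodronate groups it ranged from 56.0 to 14289 and from 50.2 to 7385. The part of these markers in the values of the keratins and Trp63 was not tested. Skeletal muscle markers moved with the same 5 genes to a lesser extent, with r from 0.623 to 0.712 (permutation adjusted p = 0.00274 to 0.00926).

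**Figure D3:**
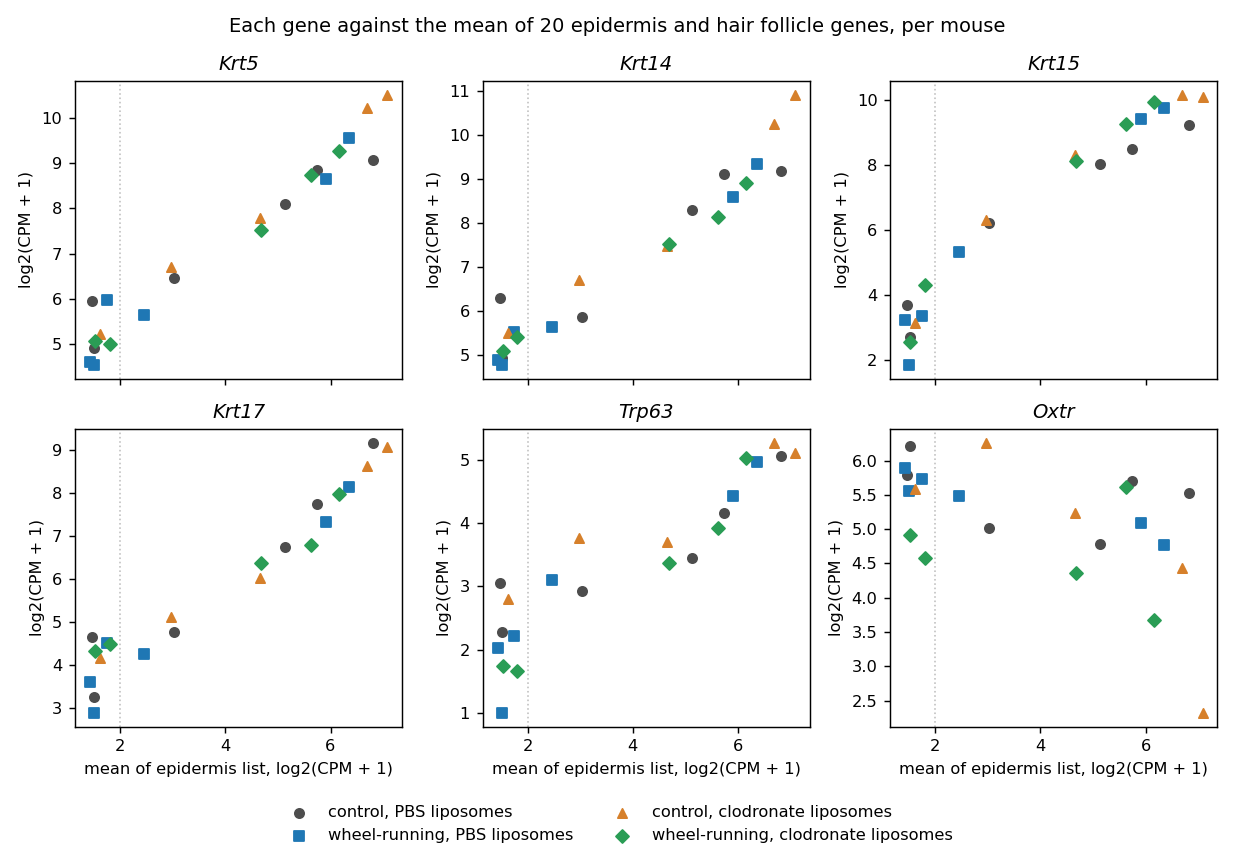
Level of each gene in log2(CPM + 1) against the mean of the 20 epidermis and hair follicle genes on the same scale, with a point for each mouse, a symbol for each group and a dotted line at a list mean of 2. The keratins and Trp63 climb along the list in all 4 groups and Oxtr declines, with its lowest point, 3.98 CPM, in the mouse with the highest list mean, 7.08.

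The mice were not evenly spread along this list. In 8 mice its mean lay between 1.42 and 1.80, with 9 to 13 of the 20 genes at the floor, and in the other 14 it lay between 2.45 and 7.08. The 8 came from every group (2 control and 3 wheel-running mice given PBS, 1 control and 2 wheel-running mice given clodronate). The value of 2 that separates them was chosen after the data were seen. In these 8 mice the keratins and Trp63 were at the lower end of their ranges, and Krt15 and Trp63 each still varied 7.3-fold. Krt5 had 22.1 to 61.8 CPM (median 31.6), Krt14 26.4 to 78.5 CPM, Krt17 6.38 to 24.3 CPM, Krt15 2.55 to 18.6 CPM and Trp63 1 to 7.32 CPM, with 1 wheel-running mouse with PBS liposomes at the floor. Oxtr had 23.0 to 73.4 CPM (median 49.4) there. The luminal markers Krt8 and Epcam were present at 23.2 to 51.8 and 34.4 to 104 CPM in the same 8 mice, and Krt10 at 7.49 to 16.5 CPM.

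In the other 14 mice Krt5 reached 48.9 to 1468 CPM (median 413), Krt15 38.6 to 1151 CPM (median 482) and Krt10 52.6 to 4443 CPM. Oxtr had 3.98 to 75.8 CPM (median 32.3), Krt8 8.38 to 36.6 CPM and Epcam 40.5 to 111 CPM. As the sets were cut on the epidermis list, which the keratins follow, the higher keratins here were largely set by the cut. Epcam had nearly the same range in both sets. The median of Krt8 was 22.5 CPM in the 14 mice and 33.3 CPM in the 8.

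Within each of these sets of mice, Krt5 had the following relations to the lists (values pooled over the groups, with no test of a difference between the sets). The sets were cut on a list that shared most of the variance of Krt5 and spanned little in the 8 mice, so a low r with that list was set by the cut there. In the 14 mice r of Krt5 was 0.970 with the epidermis list, -0.620 with the smooth muscle list, -0.661 with the adipocyte list, -0.416 with the luminal list and 0.317 with the proliferation list. In the 8 mice it was 0.319 with the epidermis list, 0.830 with smooth muscle, 0.745 with adipocyte, 0.694 with luminal and -0.830 with proliferation genes. For Trp63 the luminal and smooth muscle lists gave 0.880 and 0.828 in the 8 mice, and -0.228 and -0.522 in the 14. Oxtr was inverse to Krt5 (-0.566) and Trp63 (-0.443) in the 14 mice, and had r of 0.101 and 0.413 with them in the 8. With the other keratins its r in the 8 mice was -0.038 (Krt14), -0.297 (Krt15) and -0.433 (Krt17). With the epidermis list it was -0.541 in the 8 and -0.507 in the 14. Krt5 and Krt14 stayed together in both, at 0.863 and 0.982. The other pairs among the keratins and Trp63 were looser in the 8 mice, where the cut narrowed their range. Their r there went from 0.466 (Krt5 with Krt15) to 0.794 (Krt14 with Krt17), against 0.858 (Krt15 with Trp63) to 0.961 in the 14.

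After the epidermis list was taken out of each gene by regression, the pairs kept different amounts of their relation (a description over the 22 mice). Krt5 with Krt14 kept r = 0.733 and Krt14 with Krt17 0.668. Krt15 kept 0.444 with Trp63 and 0.205 with Krt5, and had -0.102 with Krt14. What was left of Oxtr was negative with Krt14 (-0.384), Krt17 (-0.197) and Krt5 (-0.175), and positive with Krt15 (0.173) and Trp63 (0.163). Some reads may fit both Krt14 and Krt17 through their alike transcript ends, and the part of this in their r was not tested.

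With the list mean as a covariate, an alternative chosen after the data were seen, the standard errors of the keratins and Trp63 shrank. Krt5 then differed by -0.11 (standard error 0.22) with the wheel in mice with PBS liposomes. In mice with clodronate liposomes, Krt14 differed by -0.62 (standard error 0.26, limma adjusted p = 0.361). Oxtr kept a difference of -0.62 (standard error 0.28, limma adjusted p = 0.449) between clodronate and PBS liposomes, and -0.70 (standard error 0.17, limma adjusted p = 0.577) in the 8 mice with little epidermis RNA, of which 3 had clodronate. In that fit the single control mouse with clodronate liposomes was assumed to vary like the other groups. Again 0 of the 6 genes were called.

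**Figure D4:**
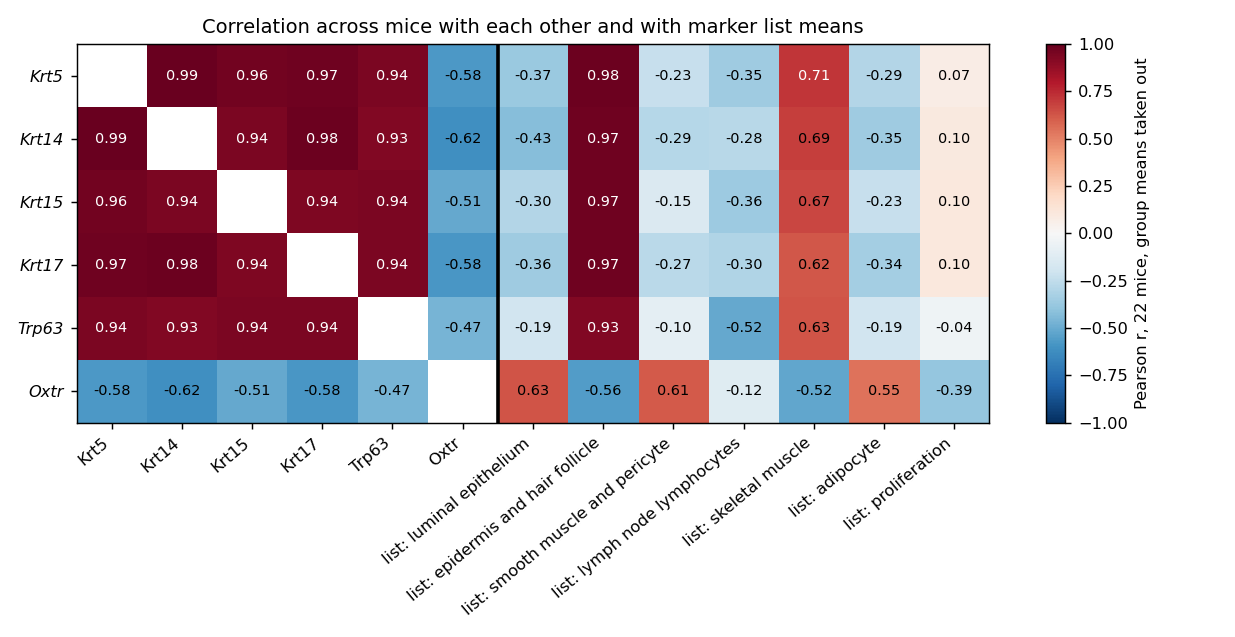
Pearson r over the 22 mice, group means taken out, of each gene (rows) with the other genes and with 7 marker list means (columns, right of the black line). The keratins and Trp63 form a block of r from 0.927 to 0.987 and share the epidermis column, and Oxtr alone is positive with the luminal (0.628), smooth muscle (0.614) and adipocyte (0.545) lists.

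Oxtr had other partners. It was related to the luminal list (r = 0.628, rho = 0.649, permutation adjusted p = 0.0179) and to the smooth muscle list (r = 0.614, rho = 0.456, permutation adjusted p = 0.0295 for r and 0.0938 for rho). With the adipocyte list r was 0.545 (permutation adjusted p = 0.0663), which did not pass. The first 2 relations rest on few mice. Without the mice farthest from the median Oxtr (control 3 and wheel-running 2, both with clodronate liposomes) they were 0.372 and 0.388, and without control mouse 3 alone 0.433 (adjusted p = 0.126) and 0.356 (adjusted p = 0.220). The relation with luminal genes was also lost without control mouse 2 with clodronate liposomes (permutation adjusted p = 0.0543), and that with smooth muscle genes without controls 2 or 4 or wheel-running mouse 1 of the same liposome. For Krt5, the luminal list gave r = -0.371 (permutation adjusted p = 0.204) and the smooth muscle list -0.230 (adjusted p = 0.431). Of the 42 relations with lists, 13 passed.

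Many of the other basal and myoepithelial genes followed one of the 2 patterns. An r above 0.5 was found with Krt5 for 13 of 22 genes (59.1%, against 9.59% of all genes). With Oxtr it was found for 4 (18.2%, against 5.58%). Others followed neither, such as Procr (-0.205 with Krt5 and -0.242 with Oxtr) and Wnt6 (0.310 and 0.039). Of the 22 genes of that list, 8 had r above 0.8 with Krt5 (36.4%), against 441 of all 15137 other genes (2.91%). They included Pkp1 (0.981), Perp (0.974), Dsc3 (0.948), Sfn (0.943), Krt6a (0.925), Jag2 (0.831) and Wnt10a (0.813), of which Pkp1, Perp and Dsc3 serve desmosomes, the junctions that hold keratinocytes together. Contractile genes of this list went with Oxtr instead. Cnn1 (calponin) had r of 0.824 with Oxtr and -0.492 with Krt5, Myh11 (smooth muscle myosin) 0.782 and -0.602, Mylk (myosin light chain kinase) 0.769 and -0.458, Acta2 (smooth muscle actin) 0.739 and -0.455, and Tagln 0.498 and -0.197. These 5 are also in the smooth muscle list, since vessel walls express them too. Of the other genes in the smooth muscle list, Rgs5 had 0.661 with Oxtr, Notch3 0.206, Pdgfrb 0.111 and Actg2, another actin, 0.085, while Des (desmin) went the other way, with -0.550 with Oxtr and 0.561 with Krt5. Acta2 had 66.5 to 269 CPM over the mice. The genes named here and in the following lists were chosen after their correlations were seen, and these values are descriptions across mice that share libraries. For single genes of the lists, r was not computed again without single mice.

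Hemidesmosomes rivet basal cells to the basement membrane, and laminin-332 is the matrix protein they hold. Of 9 genes in that list, 4 had r above 0.8 with Krt5, namely Col17a1 (0.979), Itgb4 (0.928), Dst (0.882) and Lamb3 (0.834). Itga6 had 0.750, Plec 0.558 and Lama3 0.221, and Cd151 went the other way (-0.426, and 0.629 with Oxtr). Between groups 0 of the 9 were called in each comparison. With the wheel, 6 of 9 were lower in mice given PBS (median -0.07) and 9 of 9 in mice given clodronate (median -0.54). With clodronate against PBS, 7 of 9 were higher (median 0.54). The medians over all genes in these comparisons were -0.08, 0.0045 and -0.04. In the last of them, 4 of the 9 had an unadjusted limma p under 0.05, against 1579 of all 15138 genes. Several of the 9 moved together with Krt5, so this is not a count of independent genes.

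Oxytocin signals through Gq proteins, phospholipase C and calcium release to myosin light chain kinase. Oxt, the hormone's own gene, was not above the floor in 5 mice and was not tested, and the other 9 genes of the oxytocin list were. With Oxtr, r was 0.769 for Mylk, 0.600 for Gnaq, 0.480 for the calcium channel gene Itpr1 and 0.452 for Plcb1, and near 0 for Lnpep (0.067), the gene of the enzyme that degrades oxytocin. The receptor genes of calcium stores stood apart from each other, since Itpr1 had -0.829 with Krt5 while Itpr3 had 0.827 with Krt5 and -0.698 with Oxtr. Again 0 of the 9 were called in any comparison.

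Part of the luminal list mirrored that split. Krt8, Krt19 and Cldn3 had r of -0.757, -0.658 and -0.605 with Krt5, and Cldn3 and Krt19 had 0.747 and 0.739 with Oxtr. Cdh1 (0.846) and Gata3 (0.669), which the epidermis also expresses, went with Krt5, as did Spint2 (0.600). In all, 6 of the 20 luminal genes had r under -0.5 with Krt5, against 984 of the 15137 other genes, and 0 were called in any comparison. With r above 0.5 there were 3, and the median r over the list was -0.272. The rest lay between, among them Epcam (0.023 with Krt5 and 0.412 with Oxtr) and Cldn4 (0.112 and 0.238).

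**Figure D5:**
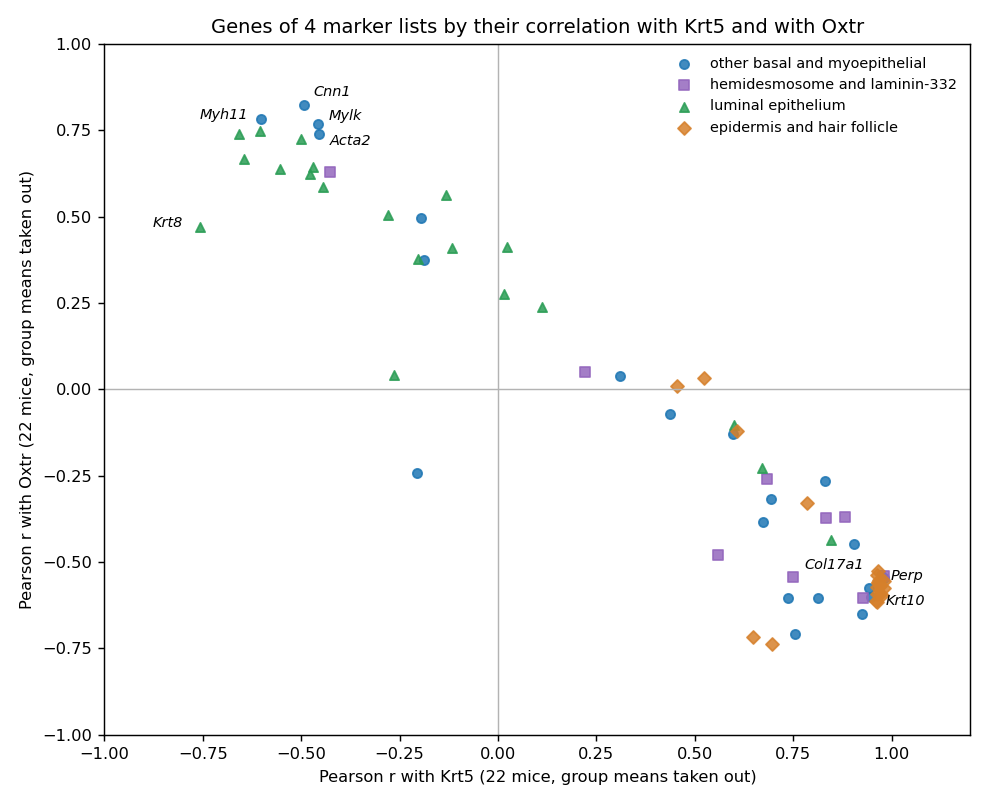
Pearson r with Krt5 (horizontal) and with Oxtr (vertical) over the 22 mice, group means taken out, with a point for each gene of 4 marker lists. Contractile genes such as Cnn1 (-0.492 and 0.824) lie at the upper left with several luminal genes. Desmosome, hemidesmosome and epidermis genes such as Perp (0.974 and -0.537) and Krt10 (0.963 and -0.571) lie at the lower right.

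A search over all genes tested gave for each gene the 3 most alike in their course over the 22 mice. For Krt5 these were Dsp (r = 0.990), the desmosomal plaque protein desmoplakin, then Krt14 (0.987) and Pkp1 (0.981). Krt14 had Krt5, Dsp (0.985) and Krt17 (0.982), and Krt17 had Dsp (0.986), Krt14 and Trim29 (0.980). Krt15 was most like Flg2, Dmkn and Lor (each 0.991 or 0.990), which are genes of the granular and cornified epidermis. Trp63 was most like Pak3 (0.963), Rora (0.962) and Cobl (0.961). For Oxtr the closest were Manea (0.860), Plrg1 (0.840) and Atp6v1b1 (0.839), and no keratin or junction gene was among them. The 5 genes outside the 6 most like their mean were Dsp (0.992), Trim29, Alox12e, Anxa8 and Elovl4 (0.978). The mean itself, of log2(CPM + 1) over the 6 genes, ran from 4.05 to 7.88 in control (median 5.89) and from 3.43 to 7.76 in wheel-running mice (median 4.73) given PBS. In those given clodronate it ran from 4.40 to 8.16 (median 6.43) and from 3.95 to 7.47 (median 6.21), so that the 4 groups covered nearly the same range.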

How the data were processed

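Per the labels, total RNA of mammary tissue from 22 mice was made into QuantSeq 3′ libraries. The submitters' processing notes name STAR 2.5.3a and GRCm38, and the counting step is not given in the sources used here. The deposited tables give a signal, CPM, for every gene of every mouse, in which the authors raised anything below 1 to 1. Reads below that floor are lost, so tests on counts were not run, and precision at low values is limited. Read totals were recovered from the step that separates low values. Of 106 repeated symbols, the row with the highest mean was used, and 94.5% of symbols were in GENCODE M21.

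Groups came from the labels. Genes that exceeded the floor in 5 or more mice entered limma (version 3.58.1, R 4.3.3), with 4 group means, a pseudocount of 1 and eBayes with a trend. Python 3.11.15 (numpy 2.4.6, pandas 2.3.3) was used for correlations. The members and lists were chosen with earlier results of these data known. The rule for named genes was all 6 genes, the 3 genes most like each, the 5 most like their mean and the defining gene of each list, and genes named beyond it are said to be so. Alternatives were other pseudocounts, filters, scalings and fits, the replicate number as a block, leaving out mice and, added after the data were seen, the epidermis list as a covariate or cutoff. Promoters came from RefSeq on GRCm38.p6. Statistics were tested on simulated data. Sequences of proteins were not used here. Some genes of the lists are not reported here by name.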

Additional observations from a re-analysis of the deposited data

Results flagged for a closer look

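For the 6 genes and their mean, 28 sets of values (7 measures in 4 groups) were searched for a mouse far from the rest of its group by Dixon's criterion, and 0 were found, where chance alone would give 1.4.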

How the results depend on the processing

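None of the 6 genes was called in any comparison under any alternative run, leaving out each mouse included (0 to 0), and 282 of 300 differences kept their sign. Counts of genes called over all genes were less steady. For the wheel with clodronate liposomes (1 gene), there were 3 with no filter on low values, 0 when 11 mice had to exceed the floor, 0 with the compared groups alone, 0 with the replicate block, 12 without the mice with lymph node markers above 3, 2 with the epidermis covariate, 4 without the mice with an epidermis mean above 2, and 0 to 236 without single mice (the most without wheel-running mouse 2, then 118 without wheel-running mouse 1). For clodronate against PBS liposomes (31 genes), there were 12 with upper-quartile scaling, 15 with scaling to assigned reads, 20 with no variance trend, 11 with the replicate block, 0 without the lymph node mice, 0 without the epidermis mice, and 9 (without control mouse 3 with clodronate) to 146 (without control mouse 1 with clodronate) without single mice. The interaction gave 2 genes with no filter. Same-numbered control and wheel-running mice had a mean correlation of -0.075 with PBS (-0.252 to 0.114) and 0.181 with clodronate liposomes (-0.120 to 0.517). Across liposomes the mean was 0.096 in control and 0.132 in wheel-running mice. These values were not tested and do not settle whether replicate numbers pair mice. The replicate block changed no call among the 6 genes.

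Signs changed as follows, with the cause not tested. Without the lymph node mice, the wheel difference with PBS liposomes was 0.14 for Krt15, with clodronate liposomes it was 0.92 (Krt5), 0.34 (Krt14), 2.01 (Krt15), 0.78 (Krt17) and 0.35 (Trp63), and the interaction was 1.08 (Krt5), 0.62 (Krt14), 0.50 (Trp63) and 0.14 (Oxtr). In that fit the wheel-running mice kept with clodronate liposomes were the 2 highest of their group on the epidermis list. With the epidermis covariate, Krt15 was 0.028 with PBS and 0.084 with clodronate liposomes. Without the epidermis mice, the wheel difference with clodronate was 0.28 (Krt15) and 0.25 (Krt17), Krt5 was -0.11 for clodronate against PBS, and the interaction was 0.20 (Krt5) and 0.29 (Krt14). Upper-quartile scaling gave 0.0072 for Oxtr (wheel, PBS).

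Leaving out single mice, 348 of 396 differences kept their sign. The others came with ranges that crossed 0, which for the wheel were -0.23 to 0.052 for Oxtr with PBS, and -1.89 to 0.30 (Krt15), -1.22 to 0.0057 (Krt17) and -0.75 to 0.24 (Oxtr) with clodronate. For the interaction they were -0.96 to 0.38 (Krt5), -1.01 to 0.34 (Krt14), -0.97 to 1.22 (Krt15), -0.30 to 0.94 (Krt17) and -0.66 to 0.33 (Oxtr). Pairs of genes past the threshold numbered 13 to 15 of 15, and relations with lists 12 to 16 of 42, the most without wheel-running mouse 3 with PBS liposomes. The relation of Oxtr with the adipocyte list passed with upper-quartile scaling (r = 0.573), and without control 1 or wheel-running 4 with PBS or wheel-running 2 with clodronate liposomes. Reads below the floor are lost, which limits Trp63 most, and the permutation test planned for genes under the filter had no gene to test.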
